A study of Mus musculus with 19 samples.

Results

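Antibody-secreting cells from the bone marrow were compared with those from the spleen. The comparison used 6 of the 19 libraries of a series on Pik3cg, the catalytic subunit p110γ of a phosphoinositide 3-kinase, in the antibody response of mice. All 6 were chosen by their sample labels: 3 libraries from bone marrow and 3 from spleen, each of antibody-secreting cells sorted as CD138+ from mice labelled wild type. Every mouse had received sheep red blood cells by intraperitoneal injection and was taken at day 28. The series design names 3 wild-type and 4 knockout mice, but the labels do not say whether a bone marrow and a spleen library with the same number came from 1 mouse. They also do not state that the libraries of a tissue came from separate mice, so the p-values measure the spread between these libraries, which may be technical in part. All 6 column headings read HET, which differs from the wild type of the sample labels, and the labels were kept. Naive splenic B cells labelled wild type (n = 3) are given as a background level.

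An antibody-secreting cell is a B cell that has shut down most of its B cell programme and devotes its RNA to immunoglobulin. Such cells arise in the spleen and lymph nodes, leave through the blood, and some settle in bone marrow niches, where they can live long as plasma cells. The sorting marker CD138 (Sdc1, syndecan-1) marks plasma cells in both organs and is also carried by B cell precursors in the bone marrow.

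The bone marrow libraries held 12.3 to 17.6 M assigned reads (1 M is 1000000) and the spleen libraries 13.1 to 16.4 M. Since most of those reads were immunoglobulin, values were rescaled to the reads outside the immunoglobulin genes and Jchain. This left 2.03 to 3.88 M reads per bone marrow library and 3.06 to 4.54 M per spleen library, and the unit below is CPM per 1000000 of these reads (rescaled CPM). Across the 8961 genes with a mean of 10 or more, the Pearson correlation of log2(rescaled CPM + 1) between libraries was 0.854 to 0.856 within spleen and 0.724 to 0.780 within bone marrow. Between the tissues it was 0.740 to 0.820, so bone marrow libraries were no more alike to each other than to spleen libraries. The 14 antibody-secreting cell markers summed to 31745 to 41401 in bone marrow and 33066 to 35224 in spleen, against a mean of 1325 in naive B cells, and none was at 0 in every library of a tissue. Of these markers 1 was higher and 4 were lower in bone marrow without overlap, beside 8.25% and 6.65% of all tested genes. The 19 genes of the T cell list summed to 804, 541 and 424 in bone marrow and 921, 569 and 712 in spleen. The naive mean was 126. Most of the sum in each of the 6 libraries was Cd28, a gene described below. Of the 4 tested genes of this list, 1 was higher and 1 lower in bone marrow without overlap, beside the same shares of all genes. The T cell genes Cd3e, Cd3d and Cd3g were at 0 to 4.84 in all 6 libraries.

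Of the 8961 genes tested, 5 passed (limma, adjusted p under 0.05), which is 0.0558% of them. Mpo and Igll1 were higher in bone marrow (0.0223%), and Apoe, Ifi27l2a and Anxa2 were lower (0.0335%). The tissues come from separate deposited tables that list the same genes, each library scaled on its own. The libraries of 1335 genes, 14.9% of all, did not overlap between the tissues, 8.25% higher in bone marrow and 6.65% lower, and nearly all of these did not pass the test. The unadjusted p was under 0.05 for 831 genes (9.27%), with 4.79% higher in bone marrow and 4.49% lower. Where a gene below is said to differ without an adjusted p under 0.05, only the levels are described. Genes named for their place in a list, beyond those the naming rule chose, were picked after their values were seen.

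Mpo, the myeloperoxidase of neutrophil granules (chromosome 11, 87793581 to 87804413, plus strand, mm10), was at 50.4, 135 and 86.4 rescaled CPM in bone marrow replicates 1, 2 and 3 and listed at 0 in all 3 spleen libraries. The bone marrow mean of 90.6 ± 42.6 (SD, n = 3) was at least 113-fold higher than a floor of 3 reads per spleen library. Its log2 fold change was 6.41 (SE 0.79, limma adjusted p = 0.0416). Igll1, the λ5 part of the surrogate light chain of B cell precursors (chromosome 16, 16860671 to 16863985, minus strand), was at 52.5, 79.9 and 418 in bone marrow and at 0 in all 3 spleen libraries. That was at least 229-fold higher (log2 fold change 6.93, SE 0.87, limma adjusted p = 0.0416), with bone marrow replicate 3 far above the others. Both genes were also listed at 0 in naive B cells. In bulk RNA, fewer cells of a type and less RNA per cell cannot be told apart.

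Apoe, a secreted apolipoprotein that carries cholesterol (chromosome 7, 19696109 to 19699188, minus strand), was at 17.6, 84.9 and 42.8 rescaled CPM in bone marrow and at 684, 1158 and 1002 in spleen. It was 19.6-fold lower in bone marrow by the means (log2 fold change −4.49, SE 0.49, limma adjusted p = 0.0416). Naive B cells held a mean of 743, so spleen antibody-secreting cells were near the naive level and all 3 bone marrow libraries far below it. The macrophage complement genes C1qa, C1qb and C1qc were at 0 to 18.3 in the 6 libraries. Of the 5 tested genes of the monocyte and macrophage list, Cd68, a lysosomal protein of macrophages, was lower in bone marrow without overlap, at 14.7, 24.7 and 9.80 against 27.8, 37.6 and 56.1 (limma adjusted p = 0.460), and its part in the fall of Apoe was not tested.

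Ifi27l2a, an interferon-inducible gene with a related neighbour, Ifi27l2b, whose possible share in its reads was not tested (chromosome 12, 103442167 to 103443680, minus strand), was at 30.7, 34.5 and 27.3 rescaled CPM in bone marrow and 176, 131 and 224 in spleen. The fall was 5.73-fold by the means (log2 fold change −2.45, SE 0.29, limma adjusted p = 0.0416). Anxa2, a calcium-dependent membrane-binding annexin (chromosome 9, 69453620 to 69491795, plus strand), was at 50.8, 26.1 and 34.1 in bone marrow and 377.5, 171 and 373 in spleen. It fell 8.29-fold by the means (log2 fold change −2.98, SE 0.38, limma adjusted p = 0.0416), although bone marrow still lay above the naive mean of 5.98.

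**Figure D1:**
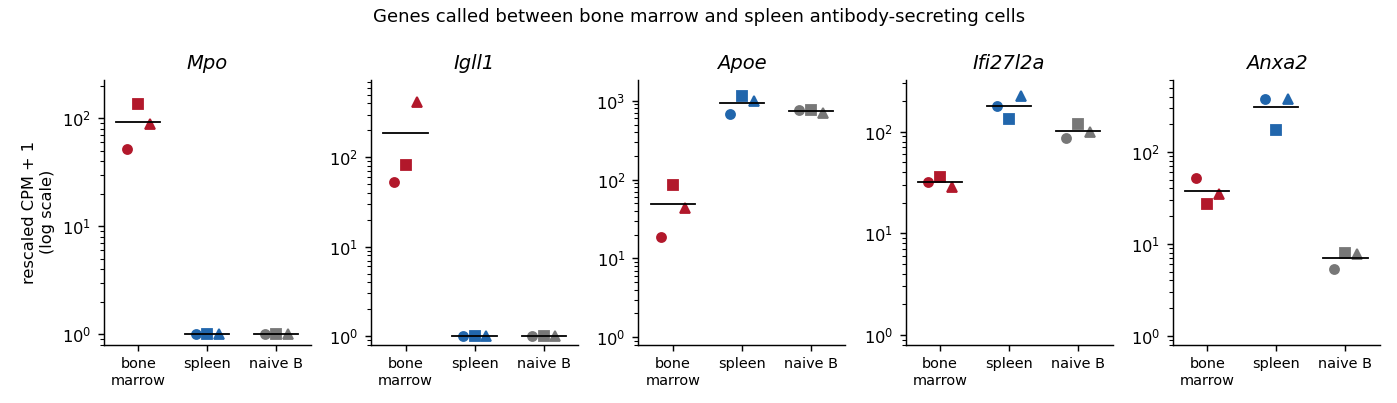
Rescaled CPM + 1 on a log scale for Mpo, Igll1, Apoe, Ifi27l2a and Anxa2 in each library of bone marrow (red), spleen (blue) and naive B cells labelled wild type (grey), with circle, square and triangle for replicates 1, 2 and 3 and a line at the mean. Mpo and Igll1 are at 0 in the 3 spleen libraries, and the other 3 genes are lower in every bone marrow library than in any spleen library.

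None of the 5 calls held with every library left out. Apoe missed the threshold without bone marrow replicate 3 (limma adjusted p = 0.246) and without spleen replicate 1, 2 or 3 (0.128, 0.0664 and 0.140). Ifi27l2a, Igll1 and Anxa2 passed without bone marrow replicate 1 and missed without any of the other libraries, with adjusted p up to 0.298, 0.400 and 0.366, and Mpo missed without any of the 6 (0.0534 to 0.379). No gene passed with a pseudocount of 0.5 (smallest limma adjusted p = 0.0578), without a filter on low levels (0.243) or with robust estimation of the spread (0.0509), with 815, 1245 and 820 genes at an unadjusted p under 0.05. On CPM as deposited, with immunoglobulin in the total, the split of calls was 0 higher and 53 lower. There the filter left 4091 genes, and immunoglobulin genes were tested too, Igkv4-69 and Igkv8-16 being among the 53. On that scale the median log2 fold change of genes outside the immunoglobulins was −0.44 in place of 0.05.

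Mpo and Igll1 belong to marker lists of other bone marrow cells, neutrophils and B cell precursors, whose other members were also examined. The 18 neutrophil genes, Mpo among them, summed to 346, 1876 and 1308 rescaled CPM in bone marrow and to 17.1, 131 and 2.86 in spleen, and 7 of the 18 were at 0 in all spleen libraries while none was at 0 in all bone marrow libraries. Ngp, a neutrophil granule protein, was at 128, 868 and 627 in bone marrow and 3.06, 60.2 and 0 in spleen. Elane, neutrophil elastase, was at 20.6, 72.0 and 41.3 against 0 in all 3 spleen libraries. The defining marker of mature neutrophils Ly6g was at 0, 0 and 2.06 in bone marrow. Without Mpo the sums were 295.7, 1741 and 1221 in bone marrow, lowest in replicate 1, which also had the lowest Mpo. The monocyte and macrophage list overlapped between the tissues in its sum (982 to 1926 against 876 to 1240), and while Cd68 was lower in bone marrow, Lyz2, lysozyme of myeloid cells, was higher without overlap, at 32.3, 337 and 209 against 7.91, 29.8 and 21.1.

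The 10 pro-B and pre-B cell genes, Igll1 among them, summed to 601, 484 and 1113 rescaled CPM in bone marrow and 198.1, 199.2 and 152 in spleen, and without Igll1 to 549, 404 and 696 in bone marrow. Much of the sum in replicates 1 and 2 was Cd93, which plasma cells also express. Vpreb1, the partner of Igll1 in the surrogate light chain, was at 25.2, 12.8 and 177 in bone marrow and at 0 in all 3 spleen libraries, without passing the test (limma adjusted p = 0.291). Il7r, the interleukin-7 receptor of early B cells, was at 2.52, 0 and 69.7 against 0, 0.327 and 0, so only bone marrow replicate 3 was high. The recombination genes Rag1 and Dntt were at 0 in all 6 libraries. Whether these cells account for the higher Mpo and Igll1 was not tested.

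**Figure D2:**
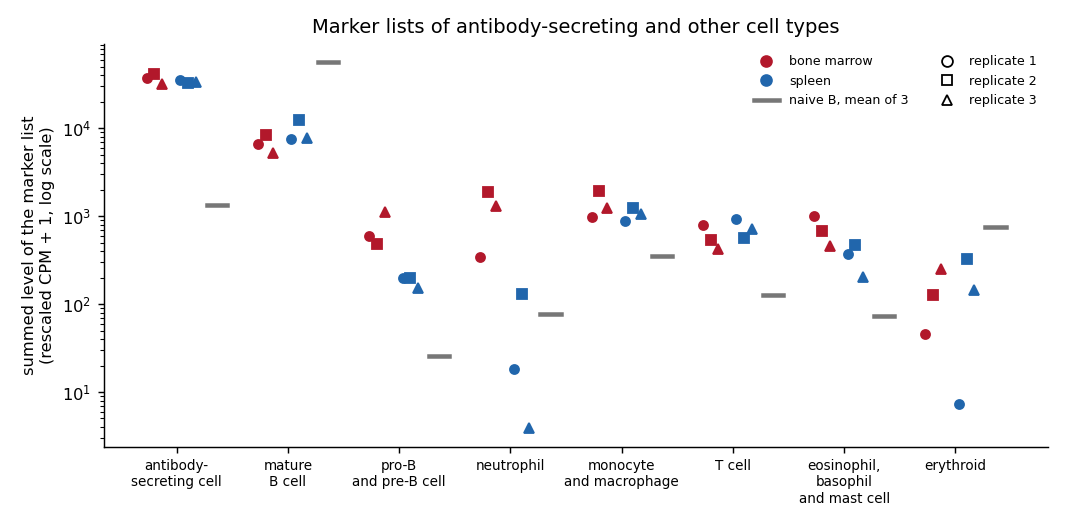
Summed level of 8 marker lists (rescaled CPM + 1, log scale) in each bone marrow (red) and spleen (blue) library, with a grey bar at the mean of naive B cells labelled wild type and symbols for the replicate number. The neutrophil and the pro-B and pre-B cell sums do not overlap between the tissues, while the antibody-secreting cell sums of 31745 to 41401 and 33066 to 35224 do.

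Immunoglobulin genes and Jchain, the joining chain of IgA and IgM polymers, took 82.7%, 83.6% and 78.0% of the deposited CPM in bone marrow and 73.0%, 76.7% and 72.3% in spleen. The tissues did not overlap, with a difference of 7.43 percentage points (exact permutation test, two-sided p = 0.1, the smallest that 3 against 3 can give, adjusted p = 0.533 over 32 measures). Jchain alone took 15.4%, 13.3% and 13.1% against 10.8%, 10.5% and 10.8%, again without overlap (exact permutation p = 0.1, adjusted p = 0.533). Without Jchain the immunoglobulin share overlapped, at 67.3%, 70.2% and 64.9% in bone marrow and 62.2%, 66.1% and 61.5% in spleen.

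Igha, the constant region of IgA, led the heavy-chain constant genes in all 6 libraries. Its share of them was 95.6%, 80.3% and 93.1% in bone marrow and 88.0%, 43.5% and 83.7% in spleen, so spleen replicate 2 stood apart from the rest. In that library Ighm reached 28.4% and the IgG genes Ighg1, Ighg2b, Ighg2c and Ighg3 together 28.1%, while in the other 5 libraries the IgG genes were at 1.95% to 8.25%. The class shares overlapped between the tissues except for the traces of Ighe and Ighd, which were at 0.0227% or less in every library. Kappa light chain was 97.2% to 98.9% of the light-chain constant CPM in all 6.

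**Figure D3:**
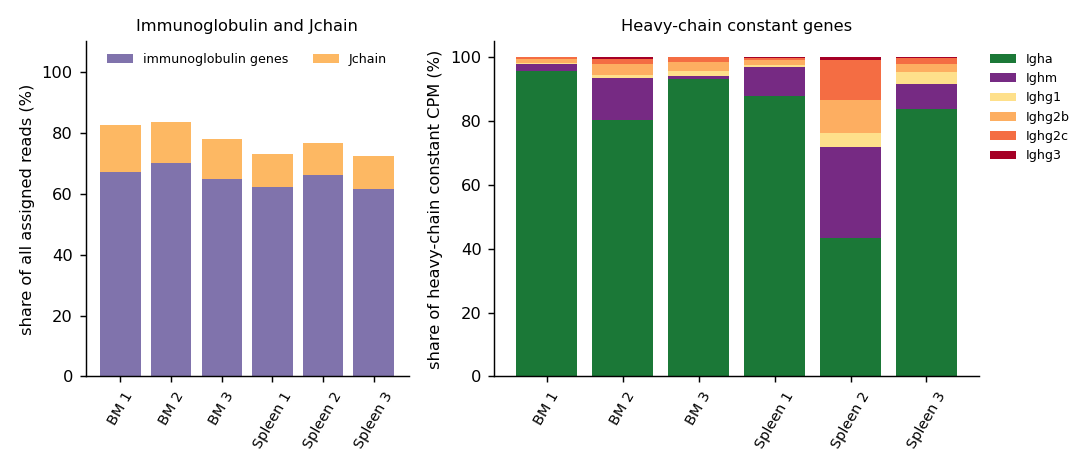
Left, share of all assigned reads (%) taken by immunoglobulin genes and Jchain in bone marrow (BM) and spleen libraries 1 to 3. Right, share of the heavy-chain constant CPM (%) taken by each constant gene. Igha is at 80.3% or more in the bone marrow libraries and at 88.0%, 43.5% and 83.7% in spleen replicates 1, 2 and 3, so the tissues overlap.

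Of 19 tested plasma cell regulators, 2 were lower in bone marrow without overlap and 0 higher, beside 6.65% and 8.25% of all genes, and none passed. Those were Ell2, an elongation factor that favours secreted immunoglobulin RNA (557, 545 and 465 rescaled CPM against 811, 1176 and 735, limma adjusted p = 0.371), and its binding partner Eaf2 (251, 203 and 92.9 against 281.3, 392 and 365.9, limma adjusted p = 0.458). The best known regulators overlapped. Xbp1, the transcription factor that builds the secretory apparatus, was at 20886, 22613 and 16904 rescaled CPM in bone marrow and 17857, 16477 and 16248 in spleen. Prdm1, which encodes the repressor Blimp-1, was at 468, 300.5 and 248 against 411, 165 and 380 (log2 fold change 0.14, 95% interval −0.71 to 0.99). Irf4, needed for plasma cell formation, was at 519, 458 and 386 against 774, 363 and 646 (log2 fold change −0.33, 95% interval −0.98 to 0.32). All 3 were far above the naive means of 374, 2.77 and 56.3. Zbtb32, a zinc finger repressor outside this list, was at 0, 0 and 5.93 in bone marrow and 75.8, 24.9 and 57.9 in spleen, without overlap and without passing (limma adjusted p = 0.234). Zbtb20, another zinc finger regulator of plasma cell survival, overlapped (275.99, 276.3 and 145 against 151, 233 and 184).

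Among surface and survival receptors, 3 of 23 tested genes were higher in bone marrow without overlap and none lower, beside 8.25% of all genes, and none passed. The log2 fold change of Tnfrsf13b was 0.41, against a median of 0.05 for all genes. On CPM as deposited it was −0.08, against a median of −0.44. Sdc1, the sorting marker itself, was at 1842, 3218 and 2453 rescaled CPM in bone marrow and 1371, 1026 and 1458 in spleen (log2 fold change 0.94, SE 0.24, limma adjusted p = 0.303). Cd93, a receptor tied to plasma cell persistence in the bone marrow, was at 500.3, 369.5 and 250 against 186, 187 and 143 (log2 fold change 1.07, SE 0.28, limma adjusted p = 0.325). Tnfrsf13b, which encodes the APRIL and BAFF receptor TACI, was at 2857, 2442 and 1902 against 1827, 1900 and 1614, while Tnfrsf17, encoding BCMA, was at 303, 390.3 and 321 against 551, 343.4 and 490.3. The costimulatory receptor Cd28 was at 745, 473 and 307.3 against 791, 489.6 and 584. Slamf7 was nearly level, at 848, 884 and 766 against 826, 985 and 746 (log2 fold change −0.03, 95% interval −0.44 to 0.39).

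Surface antigens of the Ly6 family leaned higher in bone marrow, with a median log2 fold change of 0.51 over 6 tested genes against 0.05 for all genes, and with none called. On CPM as deposited 5 of them passed the filter, with a median of 0.05 against −0.44. Ly6d was at 1595, 1750 and 1286 rescaled CPM against 765, 967 and 905, without overlap (limma adjusted p = 0.263). Ly6a, encoding Sca-1, was at 903, 1841 and 1148 against 384, 1108 and 502, and Ly6c2 overlapped widely at 334, 1080 and 471 against 380.9, 767 and 531. The tetraspanin Cd37 (77.7, 56.7 and 81.8 against 43.65, 73.3 and 61.7) and the adhesion molecule Epcam (37.8, 95.7 and 59.9 against 92.4, 80.5 and 91.2) also overlapped.

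The receptors that place cells in tissue showed opposite patterns, and none of 19 tested passed. Ccr10, the receptor for mucosal and bone marrow stromal chemokines that IgA-secreting cells carry, was at 328, 409 and 453 rescaled CPM in bone marrow and 147, 67.1 and 158 in spleen, with naive B cells at 0. The mean was 3.20-fold higher in bone marrow (log2 fold change 1.75, 95% interval 1.00 to 2.51, limma adjusted p = 0.190). Spleen replicate 2, with the lowest Ccr10, also had the lowest Igha share of 43.5%, and the part of antibody class in this difference was not tested. S1pr1, the receptor that guides lymphocytes out of tissue into blood, was at 19.7, 25.2 and 11.1 in bone marrow and 148, 68.4 and 130 in spleen, against 391 in naive B cells. It was 6.18-fold lower by the means (log2 fold change −2.56, 95% interval −3.50 to −1.62, limma adjusted p = 0.143). Gpr183, which senses oxysterols and positions B cells, was at 18.5, 8.88 and 25.3 against 58.5, 69.3 and 81.5 (limma adjusted p = 0.234). Cxcr4, the receptor for the bone marrow chemokine CXCL12, had low values in both tissues, at 1.68, 10.9 and 11.6 against 4.59, 19.0 and 9.47, and was below the filter. Cxcr3, the receptor of inflamed tissue, overlapped (36.1, 142 and 60.6 against 94.4, 273 and 116).

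Integrin genes mostly overlapped. Itga4, the α4 chain that binds VCAM-1, had a mean of 194 ± 89.6 rescaled CPM in bone marrow (SD, n = 3, lowest 121) and was at 585, 256 and 368 in spleen, with bone marrow replicate 1 above spleen replicate 2, and its partner Itgb7 at 158, 179 and 158 against 552, 125 and 404. Itgam, the CD11b chain, did not overlap, at 0, 25.7 and 20.1 in bone marrow and 255, 99.1 and 176 in spleen (log2 fold change −4.33, SE 1.08, limma adjusted p = 0.300). This was opposite in direction to the neutrophil genes above, which were higher in bone marrow. Spn, encoding CD43, was also lower in every bone marrow library, at 18.5, 57.7 and 57.3 against 326, 119 and 304.3 (limma adjusted p = 0.234). Klf2, a transcription factor that maintains S1pr1, overlapped at 163, 125 and 64.5 against 190, 109 and 261.1.

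**Figure D4:**
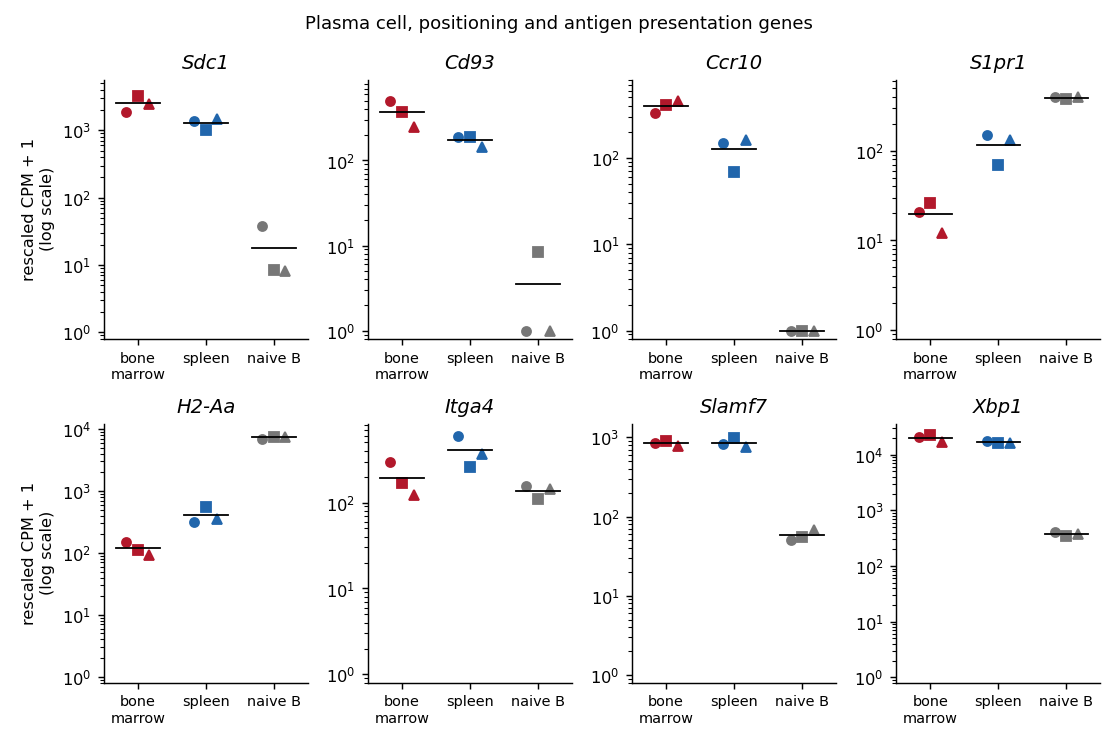
Rescaled CPM + 1 on a log scale for 8 plasma cell, positioning and antigen presentation genes, by library, with symbols and colours for tissue and replicate and a line at each mean. Sdc1, Cd93 and Ccr10 are higher in all bone marrow libraries, S1pr1 and H2-Aa are lower, and Slamf7 and Xbp1 overlap.

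Some genes of MHC class II presentation, which B cells lose as they become plasma cells, were lower in all bone marrow libraries than in any spleen library. Of 14 tested, 6 were lower without overlap, 0 were higher and 8 overlapped, beside 6.65% and 8.25% of all genes, with a median log2 fold change of −0.65, and none passed. The summed level of the list overlapped, at 7777, 9772 and 5458 in bone marrow and 9245, 16289 and 9198 in spleen (exact permutation test, two-sided p = 0.3, adjusted p = 0.64). H2-Aa was at 150, 111 and 91.6 rescaled CPM in bone marrow and 317, 543 and 352 in spleen, 1.61% and 5.52% of the naive mean of 7317 (log2 fold change −1.76, SE 0.28, limma adjusted p = 0.143). H2-Ab1, its β chain partner, was at 1138, 1347 and 630.1 against 1957, 3426 and 1898. H2-Ob, a chain of the H2-O modulator of peptide loading, was at 18.9, 36.0 and 10.8 against 86.3, 172 and 103 (limma adjusted p = 0.176). H2-DMb2 was at 1.26, 20.7 and 8.26 against 52.8, 107 and 57.5. The invariant chain gene Cd74 overlapped, at 5527, 7189 and 4053 against 5678, 10290.3 and 5616. Spleen replicate 2 was the highest library for H2-Aa, H2-Ab1, H2-Ob, H2-DMb2 and Cd74. The mature B cell list summed to 6601, 8447 and 5232 in bone marrow and 7526, 12613 and 7706 in spleen, with spleen replicate 2 again highest, and its part in the class II values was not tested.

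Promoters of class II genes share short elements, and those of H2-Aa and H2-Ob are shown because these genes had the smallest p-values of the list. The sequences are the 250 bases before the RefSeq start (mm10), chr17:34287824-34288073 on the minus strand for H2-Aa and chr17:34238655-34238904 on the plus strand for H2-Ob. Capitals mark the CCAAT box (CCAAT on either strand) and, in H2-Aa, the palindrome TGACGTCA.
H2-Aa: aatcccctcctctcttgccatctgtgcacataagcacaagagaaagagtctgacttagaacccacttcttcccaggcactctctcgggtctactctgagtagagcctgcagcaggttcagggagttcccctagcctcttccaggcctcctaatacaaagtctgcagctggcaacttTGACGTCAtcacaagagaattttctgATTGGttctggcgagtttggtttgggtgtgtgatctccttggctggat
H2-Ob: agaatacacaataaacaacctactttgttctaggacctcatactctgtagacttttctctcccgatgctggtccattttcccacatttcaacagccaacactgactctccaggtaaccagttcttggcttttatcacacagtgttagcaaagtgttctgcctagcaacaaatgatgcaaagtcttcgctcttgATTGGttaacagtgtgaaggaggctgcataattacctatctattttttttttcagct
The CCAAT letters began 48 bases before the start in H2-Aa and 57 before it in H2-Ob. Of the 14 tested class II genes, 11 had a promoter entry and 10 of these held the CCAAT letters, against 37.5% of all 27025 genes with an entry. TGACGTCA was found in 1.77% of the genes counted. These matches describe the letters only.

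Genes of the annexin, S100, galectin and actin list leaned lower in bone marrow. Of 40 tested, Anxa2 passed, and 14 were lower and 3 higher without overlap, beside 6.65% and 8.25% of all genes, with a median log2 fold change of −0.34. Crip1, a small LIM domain protein, was at 73.1, 50.8 and 80.0 rescaled CPM in bone marrow and 262, 161 and 329 in spleen (log2 fold change −1.83, SE 0.32, limma adjusted p = 0.175). Ahnak, a large scaffold protein that binds the Anxa2 complex, was at 74.4, 44.4 and 53.4 against 231, 125 and 317 (limma adjusted p = 0.207). S100a10, the direct partner of Anxa2, was at 80.7, 73.5 and 64.0 against 302, 103 and 292 (limma adjusted p = 0.332). The thymosin Tmsb4x, which binds actin monomers, was at 1121, 858 and 925 against 1903, 1551 and 2650.3. Spleen replicate 2 was the lowest of the spleen libraries for Anxa2, Crip1, Ahnak, S100a10 and Tmsb4x. The 3 genes that were higher in bone marrow were Anxa1, S100a8 and S100a9, of which S100a8 (63.0, 225 and 183 against 3.83, 23.6 and 0.220) and S100a9 are also on the neutrophil list.

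The promoter of Anxa2 is shown as that of the called gene of this list, over chr9:69453433-69453682 on the plus strand (mm10, the 250 bases before the RefSeq start). Capitals mark TGANTCA, the letters bound by AP-1 factors.
Anxa2: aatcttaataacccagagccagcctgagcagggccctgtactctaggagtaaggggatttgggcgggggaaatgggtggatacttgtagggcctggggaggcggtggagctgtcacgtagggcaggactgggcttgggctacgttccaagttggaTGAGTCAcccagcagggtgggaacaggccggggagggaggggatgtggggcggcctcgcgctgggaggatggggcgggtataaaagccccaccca
The match began 95 bases before the start, and such letters were found on either strand in 7.82% of all genes with an entry. Of the immediate-early and AP-1 list, 4 of 26 tested genes were lower without overlap and 1 higher, beside 6.65% and 8.25% of all genes, none passed, and Fos itself overlapped (4922, 6174 and 3884 against 3486, 3413 and 4995).

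Of 35 tested interferon-stimulated genes, 8 were lower in bone marrow without overlap and 1 higher, beside 6.65% and 8.25% of all genes, with a median log2 fold change of −0.25 and none called. Ifi27l2a, described above, was outside this list. Samhd1, a nucleotide hydrolase that restricts viruses, was at 153, 123 and 72.0 rescaled CPM against 370.4, 282.9 and 359 (limma adjusted p = 0.185). Gbp2, an interferon-induced GTPase, was at 18.5, 12.8 and 12.9 against 103, 34.7 and 61.0 (limma adjusted p = 0.251). Isg15, a ubiquitin-like protein, was at 41.6, 74.0 and 26.6 against 107, 122 and 147 (limma adjusted p = 0.300). Ly6e, the most abundant gene of the list, went the other way, at 4663, 4347 and 3227 against 2801, 3236 and 2351, with overlap.

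Of 37 tested genes of endoplasmic reticulum folding, 11 were lower in bone marrow without overlap, 0 were higher and 26 overlapped, beside 6.65% and 8.25% of all genes. The median log2 fold change was −0.29 and none was called. The sums of the list overlapped, at 74262, 62305 and 53047 rescaled CPM against 74559, 68618 and 67321. Manf, a secreted stress-response protein, was at 2499, 1663 and 1535 rescaled CPM in bone marrow and 2811, 3173 and 3122 in spleen (limma adjusted p = 0.387). Ppib, a proline isomerase of the endoplasmic reticulum, was at 461, 474 and 396 against 729, 672 and 844 (limma adjusted p = 0.300). Hspa5, the chaperone BiP, overlapped at 17310, 9831 and 9593 against 17972, 15016 and 14661. Of 38 tested secretion helpers, 8 were lower without overlap and 0 higher, beside 6.65% and 8.25% of all genes, among them Ssr2 of the translocon complex (575, 577 and 516 against 823, 974 and 1006) and Ostc of the glycosylation complex (316, 396 and 330.3 against 529, 583 and 628). Mzb1, a chaperone of immunoglobulin assembly, overlapped (5993, 6367 and 5082 against 6085, 7672 and 7227). These values stood beside an immunoglobulin and Jchain share that was higher in all 3 bone marrow libraries.

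Amino acid supply and ATF4 target genes leaned the other way, with 6 of 30 tested genes higher in bone marrow without overlap and 0 lower, beside 8.25% and 6.65% of all genes, and none called. Their median log2 fold change was 0.53. On CPM as deposited 18 of them passed the filter, with a median of −0.01 where that of all genes was −0.44. Slc7a5, the light chain of a transporter of large amino acids, was at 43.7, 46.9 and 45.2 rescaled CPM against 28.6, 26.8 and 20.7 (limma adjusted p = 0.498), and its heavy chain Slc3a2 overlapped at 1327, 2556 and 1444 against 1431, 1956 and 1202. Asns, asparagine synthetase, was at 187, 234.9 and 159 against 136, 111 and 141 (limma adjusted p = 0.524).

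Of the 13 mitochondrially encoded genes, 6 were higher in bone marrow without overlap and 0 lower, beside 8.25% and 6.65% of all genes, with a median log2 fold change of 0.56. On CPM as deposited the median of the 11 that passed the filter was 0.07, against −0.44 for all genes. mt-Nd1, a subunit of respiratory complex I, was at 1923, 1611 and 1397 rescaled CPM against 789, 1081 and 896 (limma adjusted p = 0.267). mt-Cytb, the most abundant of them, overlapped at 11658, 7511 and 5945 against 4477, 7145 and 4619. Bone marrow replicate 1 was highest for both. Together these genes took 2.75%, 2.08% and 1.70% of the rescaled CPM in bone marrow and 1.39%, 1.76% and 1.42% in spleen, while of the deposited CPM they took a mean of 0.398% and 0.393%. Nuclear genes of the respiratory chain had a median log2 fold change of −0.06 over 72 tested genes, with 3 higher and 5 lower without overlap.

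**Figure D5:**
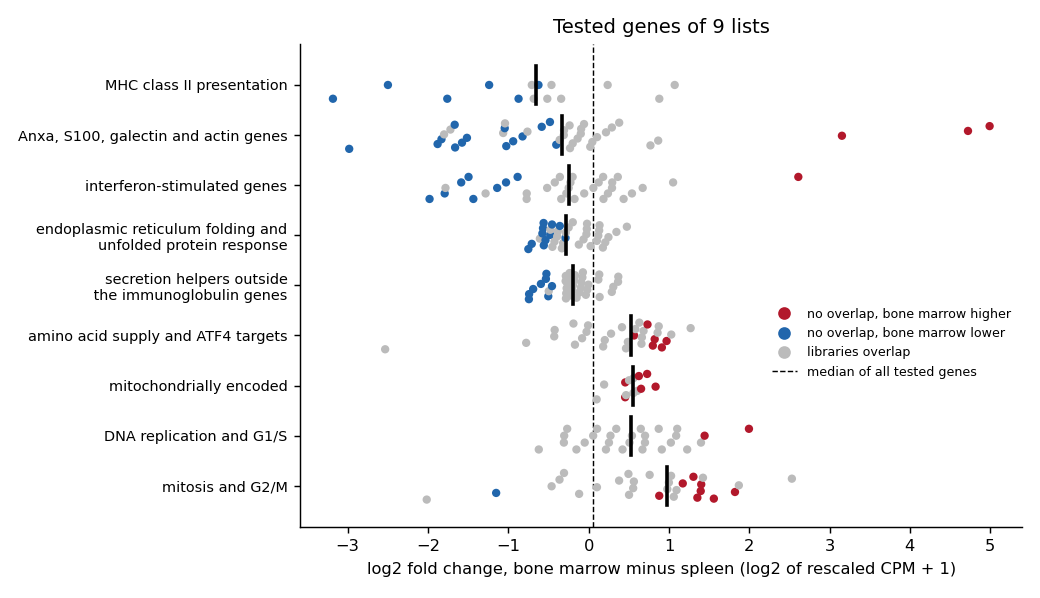
Log2 fold change, bone marrow minus spleen, of each tested gene of 9 lists, with red and blue for genes whose libraries do not overlap, grey for those that do, a thick line at the list median and a dashed line at the median of all tested genes, 0.05. The MHC class II median lies at −0.65 and the mitosis and G2/M median at 0.98, the latter with 28 of 29 genes highest in bone marrow replicate 3.

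Cell cycle genes were highest in bone marrow replicate 3, and some mitotic genes were higher in all 3 bone marrow libraries. The mitosis and G2/M list summed to 793, 821 and 2862 rescaled CPM in bone marrow and 645, 963 and 753 in spleen, and 28 of its 29 tested genes were highest in bone marrow replicate 3, as were 27.6% of all tested genes. Of the 29, 8 were higher in bone marrow without overlap and 1 lower, beside 8.25% and 6.65% of all genes. In bone marrow replicates 1 and 2 alone, the same 8 lay above every spleen library, as they must, and 3 lay below. The share of all genes under this looser rule was not counted, so the 3 cannot be set against it. The 8 were Top2a, Cdk1, Ccnb1, Cdc20, Aurkb, Bub1b, Birc5 and Stmn1, none of which passed. The median log2 fold change of the 29 was 0.98, and 0.32 without bone marrow replicate 3. On CPM as deposited 4 of them passed the filter, with a median of 0.56 against −0.44 for all genes. The DNA replication and G1/S list summed to 1270.4, 1357 and 3282 against 1375, 1374 and 1251, with a median of 0.52, and 0.10 without bone marrow replicate 3. On CPM as deposited the median of the 9 G1/S genes that passed the filter was −0.22, which was 0.22 above that of all genes. Top2a, a topoisomerase of dividing cells, was at 32.8, 41.4 and 86.2 against 14.6, 22.9 and 28.4 (limma adjusted p = 0.497). Mki67, the gene of the proliferation antigen Ki-67, was instead lower in every bone marrow library, at 54.2, 60.7 and 129 against 150, 237 and 134 (limma adjusted p = 0.433). With all 3 bone marrow libraries counted, Mki67 was the only tested gene of the G2/M list below spleen without overlap. Bone marrow replicate 3 was also the library with the most Igll1, Vpreb1 and Il7r, and the part of precursor B cells in its cell cycle genes was not tested. Myc overlapped at 102, 64.6 and 233 against 141, 90.3 and 182.

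Genes of the BCL2 family gave 4 of 18 tested genes lower in bone marrow without overlap and 0 higher, beside 6.65% and 8.25% of all genes, with none called. Bcl2l11, which encodes the death inducer BIM, was at 0.420, 2.96 and 10.3 rescaled CPM in bone marrow and 95.2, 151 and 72.9 in spleen, against 22.3 in naive B cells. It was 23.3-fold lower by the means (log2 fold change −4.68, 95% interval −6.32 to −3.05) and missed the threshold with a limma adjusted p = 0.143. Of the survival genes, Mcl1, which plasma cells depend on, was at 258.4, 274.8 and 272 against 337, 340.2 and 324, a small difference without overlap (log2 fold change −0.31, limma adjusted p = 0.639). Bcl2 (124.02, 64.1 and 63.9 against 107, 41.3 and 76.7) and Bcl2l1 (133, 24.2 and 43.1 against 102, 27.5 and 99.96) overlapped.

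Pik3cg itself, the gene the series is about, did not separate the tissues. It was at 101, 174 and 175 rescaled CPM in bone marrow and 114, 184 and 181 in spleen (log2 fold change −0.10, 95% interval −0.79 to 0.59, limma adjusted p = 0.949). In the PI3K, Akt and mTOR list, 2 of 21 tested genes were lower in bone marrow without overlap and 0 higher, near the 6.65% of all genes that were lower, and none was called.

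A fit that also held 6 naive B cell libraries, 3 labelled wild type and 3 labelled knockout, which then shared in the estimate of the spread, called 79 genes, 33 higher in bone marrow and 46 lower, and kept all 5 calls. It added Bcl2l11, Zbtb32, S1pr1, Gpr183, H2-Aa, H2-Ob, H2-DMb2, Crip1, Tmsb4x, Tmsb10 and Samhd1 among the lower genes, and Vpreb1, Elane, Ltf, Vpreb3 and Ly6d among the higher. The difference between the fits lies in how the spread is estimated, since the 6 libraries compared and their fold changes are the same in both. Naive B cells are another cell type, and their spread need not be that of antibody-secreting cells, so they were kept out of the main fit.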

How the data were processed

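RNA-seq of sorted cells was deposited by the authors as CPM per gene, in 1 table per cell population, and was aligned with STAR to mm10, per the submitters' processing notes. Tool versions, the counter and its annotation and strand setting were not given in the sources used here. The bone marrow, spleen and naive tables list the same 19416 genes, and each column sums to 1000000 on its own, so levels were compared across tables. Depth came from the smallest step of low CPM values. In the antibody-secreting cell columns, 87.2% to 88.8% of values below 1000 reads lay within 0.02 of a whole read, too few for a test on reads. The 272 immunoglobulin and Jchain rows were removed, the rest was rescaled to 1000000, and 19 rows whose names had turned into dates were then left out of the tests. The floor of 3 reads covers only the error of counting.

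Genes with a mean of 10 or more were tested with limma 3.58.1 (trend, R 4.3.3) on log2(rescaled CPM + 1), which understates changes of low genes, with Benjamini-Hochberg adjusted p under 0.05. Library measures had two-sided exact permutation tests. Named genes were up to 12 called genes per direction at 50 CPM or more without overlap, up to 4 called genes per list or its most abundant member, and fixed genes; some were left out for space. Members and lists were chosen with earlier results of these data known. The fit was tested on simulated data that gave every gene and both tissues the same spread setting, unlike these libraries. Positions are from GENCODE M21 and promoters from RefSeq (mm10). Alternatives covered pseudocount, filter, scaling, weights, robust estimation, naive libraries, threshold, replicate block and each library left out.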

Additional observations from a re-analysis of the deposited data

How the results depend on the processing

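The count of 5 called genes (limma, adjusted p under 0.05) stayed at 5 with a pseudocount of 5, a mean of 50 or more, median-of-ratios scaling, sample weights, or an added 2-fold change. With a pseudocount of 5, 4 of these genes were among the 5 of the report, and with a mean of 50 or more 3 were. It was 0 with a pseudocount of 0.5 (815 genes at an unadjusted p under 0.05), with no filter (1245), with robust estimation (820) and at an adjusted p under 0.01, and 1 with a mean of 1 or more. It rose to 53 on CPM as deposited, where 4091 genes were tested, immunoglobulin genes among them. With the naive B cell libraries in the fit it rose to 79. With 1 library left out it ran from 0 to 10: it was 10 without bone marrow replicate 1, 1 without bone marrow replicate 2 or spleen replicate 2, and 0 without bone marrow replicate 3, spleen replicate 1 or spleen replicate 3 (780, 637 and 520 genes at an unadjusted p under 0.05). Deviations of same-numbered bone marrow and spleen libraries correlated at −0.014, 0.032 and 0.005. These values cannot show whether a number marks 1 mouse, since technical spread between libraries could hide a shared mouse. A fit with the replicate block called 3 genes, 2 of them among the 5 (Apoe and Anxa2). In that fit Mpo, Igll1 and Ifi27l2a were at a limma adjusted p = 0.157. With Jchain counted outside, the difference in immunoglobulin share was 4.19 percentage points in place of 7.43. The 5 called genes did not overlap between the tissues. Settings that kept the scale therefore could not change the sign of their fold changes. The sign was also unchanged with median-of-ratios scaling and on CPM as deposited, where the gene was tested. At 2.03 to 4.54 M reads outside the immunoglobulin genes, 3 reads correspond to 0.661 to 1.48 rescaled CPM. Listed levels below this floor of a library rest on fewer than 3 reads. The causes of these changes were not tested.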
